A study of Homo sapiens with 8 samples.

Results

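The genes of glycolysis and of the response to low oxygen were followed in Reh cells, a human B-cell precursor leukaemia line. A list of 39 genes was used, and each gene was read on the probe set that carried its symbol alone and had the highest mean over the 8 arrays. Of the 39 genes, 37 had such a probe set, out of 19775 genes on the array with 1. SLC16A3, a lactate exporter, and CA9, a carbonic anhydrase, were not analysed here. The oxygen sensor EGLN3 lay between log2 3.85 and 4.44 on all arrays, close to background, so 36 members passed the floor of log2 5 on at least 2 arrays and were tested. All 36 are described here, whether or not they changed.

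The study transfected Reh cells in 4 ways and hybridised total RNA of 2 biological replicates of each to Affymetrix U133 Plus 2.0 arrays. The groups were shRNA targeting CBFA2T3 combined with IKKβ(EE) ("both constructs"), the CBFA2T3 shRNA, IKKβ(EE), and a control shRNA. CBFA2T3 belongs to the ETO proteins, which hold transcription down, and IKKβ(EE) is an always active form of the kinase that switches on NF-κB. The sources used here do not say how long after transfection RNA was taken, what share of cells took up a construct, whether cells given IKKβ(EE) alone also carried the control shRNA, or what arrays of equal replicate number had in common. The series design calls the line leukaemia-derived, whereas the sample labels name a non-Hodgkin lymphoma.

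Glycolysis splits glucose into pyruvate, and lactate dehydrogenase turns pyruvate into lactate when mitochondria do not take it up. When oxygen is scarce the prolyl hydroxylases of the EGLN family stop marking HIF1A for destruction, and the stabilised factor switches on transporters, glycolytic enzymes, pyruvate dehydrogenase kinases and genes such as VEGFA and BNIP3 through short DNA elements with the core ACGTG or GCGTG. TXNIP and ARRDC4 belong to the alpha-arrestins, which pull glucose transporters off the cell surface. They are switched on by the glucose-sensing factors MondoA and ChREBP, each with the partner MLX, through paired half-sites that resemble the E-box CACGTG.

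The promoters of 6 members are shown because they carry these elements. Each is the 250 bases before an annotated start, 5′ to 3′ on the strand of the gene, from the RefSeq table of build GRCh38.p14. Capitals mark every match, on either strand, to ACGTG or GCGTG (extended to CACGTG where the letters allow) and to the paired half-sites, here 2 copies of CACGNG with 5 bases between them. TXNIP, ARRDC4, ALDOC, P4HA1 and BNIP3 were higher in replicate 2 than in replicate 1, as given further on, and LDHA was not called. The windows are chr1:145996580-145996829 (minus strand) for TXNIP, chr15:97960453-97960702 (plus) for ARRDC4, chr17:28576896-28577145 (minus) for ALDOC, chr10:73096867-73097116 (minus) for P4HA1, chr10:131981924-131982173 (minus) for BNIP3 and chr11:18394313-18394562 (plus) for LDHA.
TXNIP: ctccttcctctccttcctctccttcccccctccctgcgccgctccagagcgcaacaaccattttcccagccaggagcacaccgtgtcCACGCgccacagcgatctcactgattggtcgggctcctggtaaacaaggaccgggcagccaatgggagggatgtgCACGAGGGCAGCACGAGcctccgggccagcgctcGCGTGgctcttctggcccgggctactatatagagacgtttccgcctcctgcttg
ARRDC4: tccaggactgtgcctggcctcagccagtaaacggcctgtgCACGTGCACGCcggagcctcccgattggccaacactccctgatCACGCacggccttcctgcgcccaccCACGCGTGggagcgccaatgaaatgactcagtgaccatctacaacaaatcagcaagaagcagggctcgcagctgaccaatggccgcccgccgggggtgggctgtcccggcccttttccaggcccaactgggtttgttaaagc
ALDOC: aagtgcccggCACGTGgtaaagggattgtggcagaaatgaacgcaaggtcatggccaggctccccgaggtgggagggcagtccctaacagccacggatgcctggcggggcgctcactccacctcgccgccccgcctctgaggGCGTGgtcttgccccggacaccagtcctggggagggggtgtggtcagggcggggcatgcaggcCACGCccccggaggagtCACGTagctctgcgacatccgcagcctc
P4HA1: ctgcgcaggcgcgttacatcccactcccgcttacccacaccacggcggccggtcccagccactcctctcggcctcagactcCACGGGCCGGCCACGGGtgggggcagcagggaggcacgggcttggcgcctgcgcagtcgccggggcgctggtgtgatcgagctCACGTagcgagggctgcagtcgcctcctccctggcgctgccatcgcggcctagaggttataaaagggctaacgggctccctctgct
BNIP3: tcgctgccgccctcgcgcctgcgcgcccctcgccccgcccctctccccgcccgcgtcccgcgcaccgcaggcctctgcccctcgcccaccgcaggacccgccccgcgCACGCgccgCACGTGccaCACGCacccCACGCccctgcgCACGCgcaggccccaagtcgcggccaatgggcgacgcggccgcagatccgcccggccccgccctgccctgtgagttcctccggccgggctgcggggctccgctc
LDHA: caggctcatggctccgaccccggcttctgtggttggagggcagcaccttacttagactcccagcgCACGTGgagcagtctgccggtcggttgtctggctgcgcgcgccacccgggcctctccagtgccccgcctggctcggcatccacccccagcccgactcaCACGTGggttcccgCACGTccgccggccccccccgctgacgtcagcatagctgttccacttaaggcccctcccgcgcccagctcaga

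Among the members searched, TXNIP and P4HA1 were those with a match to the paired half-sites, which 0.0456% of 35116 promoter windows hold (16 windows). The core ACGTG or GCGTG stood in 43.2% of all windows and CACGTG in 6.34%. Of the members tested, 32 of 36 had windows searched, 59 in all, since a gene may have several starts. BNIP3L and NDRG1, on chromosome 8, were left out of the search, and SLC2A3 and VEGFA had no window searched. The core was in 37 of these 59 windows (62.7%). Of the 16 members called between replicates 13 had windows, and the core was in 15 of these 19 windows (78.9%). The 13 include GPI, which was lower in replicate 2. The core was in 22 of the 40 windows of members not called (55%). Windows of the same gene are not independent, and some overlap. HK1 and PFKM, both not called, had many windows each, most without the core, so these shares do not compare genes. LDHA, which was not called, held 5 core matches in the window shown (a CACGTG counts on both strands), as many as ALDOC, and BNIP3 and ARRDC4 held 6 each. A match is a string of letters, and no binding was measured.

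The targeted genes differed in the direction of the labels. CBFA2T3 changed by -1.23 log2 with both constructs (adjusted p = 0.00938) and by -0.999 with the shRNA alone (adjusted p = 0.0518, limma). Of 3 IKBKB probe sets, 1 read 11.45 and 11.97 with both constructs and 10.85 and 10.39 with IKKβ(EE) alone, against 3.97 and 4.02 in control cells, which is under the floor. The other 2 changed by 0.09 and 0.38 log2 with both constructs and by 0.32 and 0.26 with IKKβ(EE) alone, and were not called. Markers of B-cell precursors were above the floor for 8 of 9 genes measured, all but VPREB1, and T-cell markers for 0 of 4. Of the other blood markers measured, CSF1R of monocytes (at most 5.28) and 2 erythroid genes (at most 5.57) lay just above the floor. COL1A1 read 7.07 to 7.57, whereas the other fibroblast markers did not pass the floor. In these bulk samples a change in the share of cells that express a gene and a change of RNA per cell cannot be told apart.

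Of the hypoxia-induced genes outside glycolysis 7 of 10, and both alpha-arrestins, were called higher in replicate 2 than in replicate 1, while most enzymes of glycolysis were not called. In a limma fit with group and replicate number, 16 of the 36 members passed an adjusted p of 0.05 between replicate 2 and replicate 1, 15 higher and 1 lower in replicate 2. Among the 15, ENO2 and ARRDC4 passed the floor only because of their replicate 2 values. Over all 24481 probe sets tested, 8.90% were called, 5.20% higher and 3.70% lower. Of the 36 members, 22 were higher in replicate 2 in all 4 groups, against 18.0% of all probe sets, and 9 by more than 0.3 log2 in all 4, against 2.20%. GPI, PFKM and SLC2A1 were lower in replicate 2 in all 4 groups, against 20.0% of all probe sets. The median member difference was 0.32 log2, against -0.00 over 11445 genes. The fit rests on 4 differences, 1 per group, and an exact permutation test of 4 pairs for a single gene cannot give a p under 0.125.

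**Figure D1:**
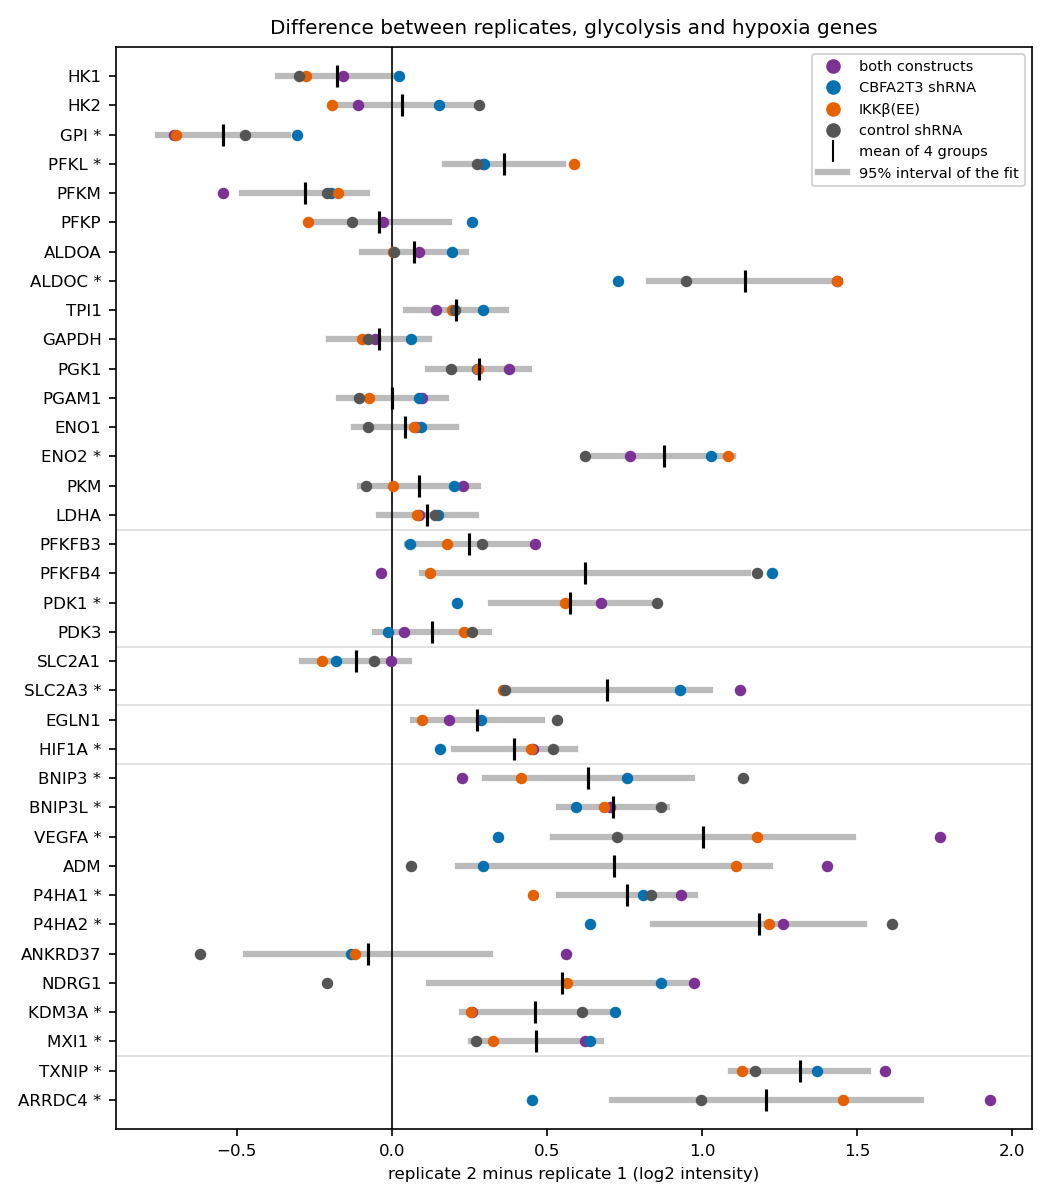
Replicate 2 minus replicate 1 in log2 intensity for the 36 members tested, 1 point per group, with the mean of the 4 groups (black line) and its 95% interval from the fit (grey bar); an asterisk marks an adjusted p under 0.05. TXNIP, ALDOC and P4HA2 have all 4 points well to the right of 0, while GPI has all 4 to the left and GAPDH, ENO1 and LDHA stay near 0.

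Both alpha-arrestins were called. TXNIP, which also binds thioredoxin, read 11.54 (both constructs), 11.76 (CBFA2T3 shRNA), 11.08 (IKKβ(EE)) and 11.20 (control) in replicate 2, against 9.95, 10.39, 9.96 and 10.03 in replicate 1 of the same groups. No replicate 2 array overlapped a replicate 1 array. The difference of 1.31 ± 0.09 log2 (SE, n = 4 groups) is 2.49-fold, with an adjusted p of 0.00890, and the 2 further probe sets of TXNIP gave 1.21 and 1.27. ARRDC4 read 6.83, 5.64, 6.39 and 5.89 in replicate 2, against 4.90, 5.19, 4.94 and 4.89 in replicate 1, in the same order of groups. The difference was 1.21 ± 0.21 log2 (adjusted p = 0.0256). The replicate 1 arrays sat at the floor, where log2 values understate a fold. Of these only the CBFA2T3 shRNA array (5.19) reached log2 5, so ARRDC4 was tested because of replicate 2, where it was high.

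Hypoxia-induced genes outside glycolysis were called for 7 of 10, all higher in replicate 2. P4HA2 and P4HA1 are the catalytic subunits of collagen prolyl hydroxylase. P4HA2 read 6.30 (both constructs), 6.18 (CBFA2T3 shRNA), 6.40 (IKKβ(EE)) and 6.37 (control) in replicate 2, against 5.04, 5.54, 5.18 and 4.76 in replicate 1, a difference of 1.18 ± 0.14 log2 (adjusted p = 0.0134). P4HA1 read 10.25, 10.72, 10.05 and 10.78 in replicate 2, against 9.32, 9.91, 9.60 and 9.94 in replicate 1, a difference of 0.76 ± 0.09 log2 (adjusted p = 0.0135). The arrays were separated by replicate number for both genes. The smallest difference within a group was that of P4HA1 in IKKβ(EE) cells (0.45). The replicate 2 array of that group (10.05) lay little above the highest replicate 1 array, that of control (9.94).

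BNIP3L and BNIP3 are receptors that mark mitochondria for removal. BNIP3L read 11.05 (both constructs), 11.31 (CBFA2T3 shRNA), 11.44 (IKKβ(EE)) and 11.61 (control) in replicate 2, against 10.34, 10.71, 10.76 and 10.75 in replicate 1, a difference of 0.71 ± 0.07 log2 (adjusted p = 0.00979). BNIP3 was higher by 0.63 ± 0.14 log2 (adjusted p = 0.0409), but unevenly, by 0.23 with both constructs, 0.76 with the shRNA, 0.42 with IKKβ(EE) and 1.13 in control cells. The second probe sets gave 0.77 for BNIP3L and 0.68 for BNIP3, also called. VEGFA, the vascular growth factor, read 8.99, 8.22, 8.64 and 8.07 in replicate 2, against 7.22, 7.88, 7.46 and 7.34 in replicate 1, in the order of groups given for BNIP3L. Its difference was 1.00 ± 0.21 log2 (adjusted p = 0.0330), and its second probe set, much dimmer, gave 0.24 (adjusted p = 0.272).

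KDM3A, a histone demethylase, was higher in replicate 2 by 0.46 ± 0.10 log2, and MXI1, an antagonist of MYC, by 0.46 ± 0.09 log2 (adjusted p = 0.0376 and 0.0295). Adrenomedullin (ADM), a secreted peptide, and NDRG1, a stress gene named for its regulation by MYC, differed by 0.72 and 0.55 log2 without passing the threshold (adjusted p = 0.0764 and 0.0970). ANKRD37, an ankyrin repeat protein, differed by -0.62 in control cells and 0.56 with both constructs, so its replicates did not differ in 1 direction.

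Among the 16 enzymes of the glycolytic chain, 3 were higher and 1 lower in replicate 2. ALDOC, the aldolase of brain, read 9.24 (both constructs), 9.14 (CBFA2T3 shRNA), 9.21 (IKKβ(EE)) and 8.92 (control) in replicate 2, against 7.80, 8.42, 7.78 and 7.98 in replicate 1, a difference of 1.14 ± 0.13 log2 (adjusted p = 0.0118). ENO2, the neuronal enolase, read 5.21, 5.92, 5.71 and 5.36 in replicate 2, against 4.44, 4.89, 4.62 and 4.74 in replicate 1, a difference of 0.88 ± 0.10 log2 (adjusted p = 0.0104). Both genes separated the arrays fully by replicate number. The ENO2 values of replicate 1 lay under the floor, so ENO2 was tested only through replicate 2, where it was high.

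PFKL, the liver-type phosphofructokinase, was higher in replicate 2 by 0.36 ± 0.08 log2 (adjusted p = 0.0399), and its second probe set gave 0.29 (adjusted p = 0.0999). GPI, which turns glucose phosphate into fructose phosphate, ran the other way. It read 9.54 (both constructs), 10.08 (CBFA2T3 shRNA), 9.34 (IKKβ(EE)) and 9.88 (control) in replicate 2, against 10.24, 10.38, 10.04 and 10.36 in replicate 1, a difference of -0.54 ± 0.09 log2 (adjusted p = 0.0222). The arrays of the 2 replicates overlapped slightly, although every group was lower in replicate 2. The other 12 enzymes were not called and differed by between -0.28 (PFKM, the muscle-type phosphofructokinase) and 0.28 log2 (PGK1, phosphoglycerate kinase, adjusted p = 0.0510). LDHA, lactate dehydrogenase, read 13.24 to 13.51 on all 8 arrays and GAPDH 13.90 to 14.14. Their differences of 0.12 log2 (95% interval -0.04 to 0.27) and -0.04 log2 (-0.20 to 0.12) leave no room for intensity changes of the size seen for ALDOC. LDHA and GAPDH lay near the top of the values on the arrays, far above ALDOC. Whether signals this high show a change of RNA in full was not tested, so the intervals hold for intensity only.

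Of the genes that steer the flow of carbon, 1 of 4 was called. PDK1, a kinase that switches off pyruvate dehydrogenase, read 8.67 (both constructs), 8.45 (CBFA2T3 shRNA), 9.01 (IKKβ(EE)) and 9.30 (control) in replicate 2, against 8.0, 8.24, 8.45 and 8.44 in replicate 1, a difference of 0.57 ± 0.11 log2 (adjusted p = 0.0291). Its dimmer second probe set gave 0.30 (adjusted p = 0.103). PDK3, of the same kinase family, differed by 0.13 log2 (adjusted p = 0.307). PFKFB3 and PFKFB4 make and break the sugar phosphate that activates phosphofructokinase, and they differed by 0.25 and 0.62 log2 without passing the threshold (adjusted p = 0.105 and 0.115).

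The glucose transporter SLC2A3 was higher in replicate 2 by 0.69 ± 0.14 log2 (adjusted p = 0.0323), by 1.12 with both constructs, 0.93 with the shRNA, 0.36 with IKKβ(EE) and 0.36 in control cells. Its 2 other probe sets gave 0.42 and 0.41 log2 and were not called (adjusted p = 0.0551 and 0.0984). A further 2 probe sets name SLC2A3 together with its near-identical relative SLC2A14 and were left out. SLC2A1, the widespread glucose transporter, stayed at 6.21 to 6.78 on all arrays and differed by -0.12 log2. HIF1A itself was higher in replicate 2 by 0.40 ± 0.08 log2 (adjusted p = 0.0347), and its hydroxylase EGLN1 differed by 0.28 log2 (adjusted p = 0.0905). No protein was measured.

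Whether a member passed the threshold depended on single arrays. Leaving out 1 array also leaves 1 of the 4 groups without a replicate difference. Without either CBFA2T3 shRNA array no member was called, and no probe set of the 24481 was. The count of members called was 2 without either IKKβ(EE) array, 6 without either array of both constructs and 10 without either control array. TXNIP and P4HA1 were the 2 without an IKKβ(EE) array, and TXNIP, ALDOC, P4HA1, BNIP3L, ENO2 and P4HA2 the 6 without an array of both constructs. In size, TXNIP lay between 1.22 and 1.38 log2 (adjusted p = 0.0150 to 0.0511) and ALDOC between 1.04 and 1.27 log2 (adjusted p = 0.0314 to 0.0511) over the arrays left out. No direct measure of RNA integrity was used here, and control probes were read in its place. For ACTB their distance was larger in replicate 2 in every group except both constructs. The distance of the ACTB control probes at the 3′ and 5′ ends was 1.51 (both constructs), 1.81 (CBFA2T3 shRNA), 1.84 (IKKβ(EE)) and 1.94 (control) log2 in replicate 2, against 1.65, 1.52, 1.25 and 1.55 in replicate 1. That of the GAPDH probes was 0.26 to 0.38 on all arrays, and the part of either in the member differences was not tested.

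**Figure D2:**
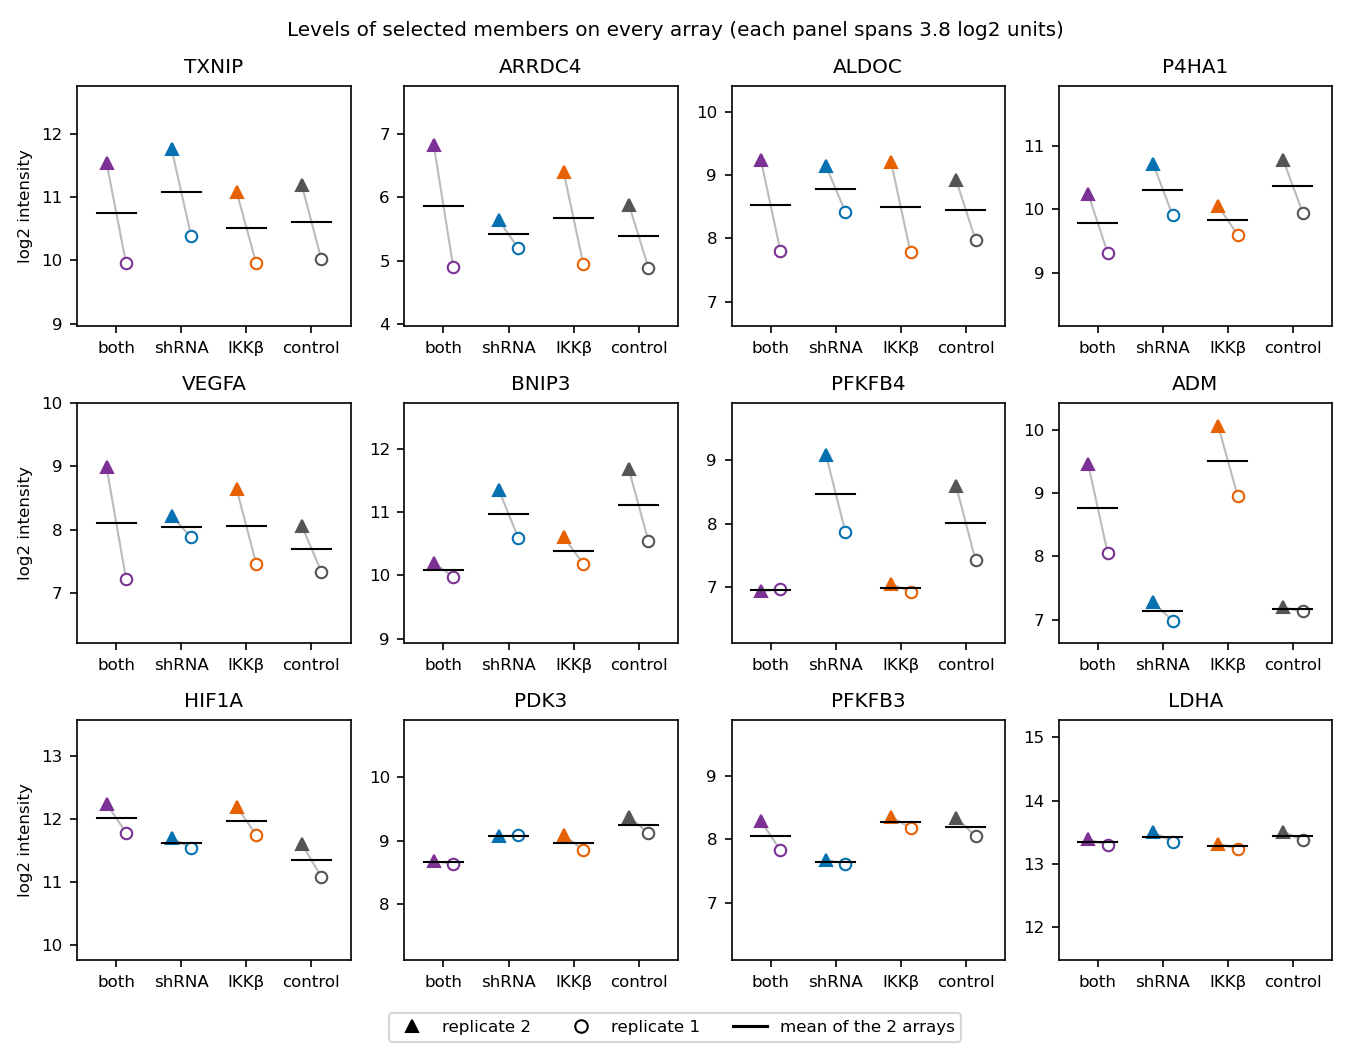
Log2 intensity of 12 selected members on each of the 8 arrays, by group (both constructs, CBFA2T3 shRNA, IKKβ(EE), control shRNA), with replicate 2 as triangles, replicate 1 as open circles and the mean of the 2 arrays as a line; every panel spans 3.8 log2 units, and levels of different panels are not comparable. TXNIP separates by replicate in every group, ADM by IKKβ(EE), and LDHA stays between 13.24 and 13.51.

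With both constructs against control, 1 of 36 members was called, PDK3, where 8.43% of all probe sets were (limma, 4 group means). At an unadjusted p under 0.05 there were 7, against 27.0% of all probe sets. The median change of the members was 0.01 log2, against -0.02 over all genes, with 18 above 0 and 18 below. PDK3 read 8.63 and 8.67 in cells with both constructs, against 9.12 and 9.38 in control cells. The groups did not overlap, and the change was -0.59 ± 0.14 log2 (adjusted p = 0.0419). The call was lost, with adjusted p from 0.0538 to 0.204, whichever of the 8 arrays was left out, and the second probe set of PDK3 changed by -0.14 (adjusted p = 0.493).

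With replicate number as a block, which takes the replicate difference out of the spread, 12 members were called with both constructs, 4 higher and 8 lower, against 23.7% of all probe sets (11.8% higher and 12.0% lower). ADM, HIF1A, PFKL and MXI1 were the 4 higher. ADM read 8.06 and 9.46 in cells with both constructs, against 7.13 and 7.20 in control cells, a change of 1.60 ± 0.48 log2 (adjusted p = 0.0825, and 0.0112 with the block). HIF1A read 11.78 and 12.24 with both constructs, against 11.09 and 11.61 in control cells, a change of 0.66 ± 0.24 log2 (adjusted p = 0.129, and 0.00917 with the block). Neither gene overlapped between these groups. PFKL changed by 0.50 and MXI1 by 0.55 log2 (adjusted p = 0.0215 and 0.0208 with the block, 0.204 and 0.243 without it).

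The 8 members lower with both constructs under the block were PFKFB4, BNIP3, BNIP3L, P4HA1, PDK1, PDK3, PFKM and HK2. PFKFB4 read 6.97 and 6.93 with both constructs, against 7.42 and 8.60 in control cells, a change of -1.06 ± 0.45 log2 (adjusted p = 0.180, and 0.0485 with the block). BNIP3 read 9.97 and 10.20 with both constructs, against 10.54 and 11.68 in control cells, a change of -1.02 ± 0.39 log2 (adjusted p = 0.142, and 0.0128 with the block). The lowest control array of either gene lay above both arrays of the cells with both constructs.

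HK2, an inducible hexokinase, read 9.91 and 9.80 with both constructs, against 10.27 and 10.55 in control cells, a change of -0.56 log2 (adjusted p = 0.0563, and 0.0261 with the block). Its 2 dimmer probe sets changed by 0.01 and 0.08, and in the replicate comparison these were called lower in replicate 2 (-0.59 and -0.47) where the first gave 0.03, so the probe sets of HK2 disagreed. PFKM read 10.40 and 9.86 with both constructs, against 10.89 and 10.68 in control cells, a change of -0.66 log2 (adjusted p = 0.0802, and 0.0105 with the block). BNIP3L, P4HA1 and PDK1 changed by -0.48, -0.58 and -0.54 log2, and their groups overlapped. The second probe set of PDK1 gave 0.05 and that of BNIP3L -0.22. All 12 block calls were lost when replicate 2 of control or replicate 2 of both constructs was left out, and 11 to 13 members were called without any other array.

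With the CBFA2T3 shRNA against control, 0 of 36 members were called by limma (0.690% of all probe sets), and 3 had an unadjusted p under 0.05, against 16.2% of all probe sets. The median change was 0.14 log2, against 0.02 over all genes, with 25 members above 0 and 11 below. The 3 were HK1, the widespread hexokinase (0.46 log2), PFKP, the platelet-type phosphofructokinase (0.44), and PFKFB3 (-0.55), with adjusted p of 0.204, 0.200 and 0.198. The block called 1 member, against 7.72% of all probe sets. It was PFKFB3, which read 7.62 and 7.68 in CBFA2T3 shRNA cells, against 8.05 and 8.34 in control cells (adjusted p = 0.0391 with the block). The groups did not overlap. The call was lost (adjusted p = 0.0675 to 0.291) without any 1 array of the CBFA2T3 shRNA, IKKβ(EE) or control groups.

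With IKKβ(EE) alone against control, 0 of 36 members were called by limma (0.229% of all probe sets), and 4 had an unadjusted p under 0.05, against 9.76% of all probe sets. The median change was -0.16 log2, against -0.04 over all genes, with 12 members above 0 and 24 below. ADM had the largest change of any member. It read 8.96 and 10.07 in IKKβ(EE) cells, against 7.13 and 7.20 in control cells, a change of 2.35 ± 0.48 log2 or 5.09-fold (95% interval 1.23 to 3.46 log2). The lower IKKβ(EE) array stood well above both control arrays, and the adjusted p was 0.151, or 0.0107 with the block.

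The block called 3 members with IKKβ(EE), all higher, against 3.39% of all probe sets (2.96% higher). Beside ADM these were HIF1A, which read 11.74 and 12.19 in IKKβ(EE) cells, against 11.09 and 11.61 in control cells, and PFKL, which read 8.27 and 8.86 against 7.86 and 8.13 in control cells. Their changes were 0.62 and 0.57 log2 (adjusted p = 0.0386 and 0.0446 with the block, 0.474 and 0.481 without it), and neither gene overlapped between the groups. Under the block HIF1A and PFKL were not called without either array of IKKβ(EE) or of control, and PFKL not without either CBFA2T3 shRNA array. ADM was lost without replicate 2 of IKKβ(EE) or of control. HK2 read 9.97 and 9.78 with IKKβ(EE), against 10.27 and 10.55 in control cells, a change of -0.53 log2 (adjusted p = 0.270, and 0.0905 with the block). PFKFB4 read 6.93 and 7.05 in IKKβ(EE) cells, against 7.42 and 8.60 in control cells, a change of -1.02 ± 0.45 log2 (adjusted p = 0.523). The PFKFB4 arrays did not overlap, and the 2 control arrays lay 1.18 log2 apart.

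**Figure D3:**
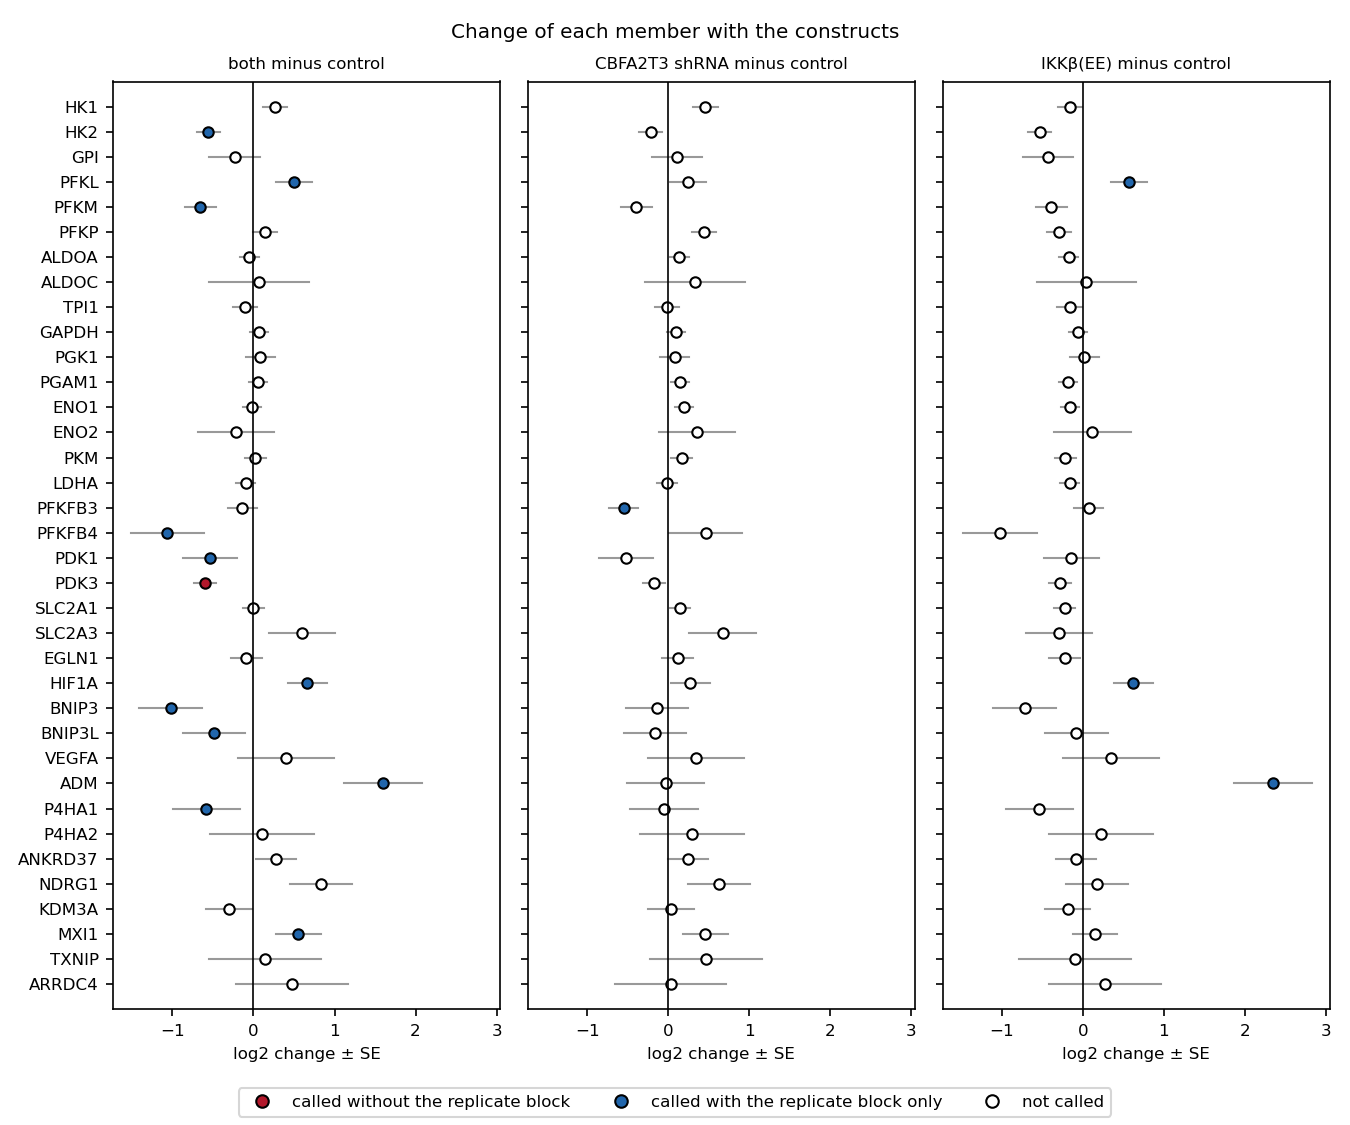
Change of each of the 36 members in log2 intensity (point) with its standard error from the fit without the replicate block (bar), for both constructs, CBFA2T3 shRNA and IKKβ(EE), each minus control shRNA; red marks a call without the block, blue a call with the block only. ADM is highest with IKKβ(EE) (2.35) and with both constructs (1.60), and PDK3 is the 1 red point. The 3 panels share the control arrays.

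With both constructs against the CBFA2T3 shRNA, where the cells differ by IKKβ(EE), 0 of 36 members were called by limma (0.862% of all probe sets), and 4 had an unadjusted p under 0.05, against 15.2% of all probe sets. The block called 2, against 5.08% of all probe sets. ADM read 8.06 and 9.46 with both constructs, against 6.98 and 7.28 in CBFA2T3 shRNA cells, a change of 1.63 ± 0.48 log2 (adjusted p = 0.193, and 0.0299 with the block). PFKFB4 read 6.97 and 6.93 with both constructs, against 7.86 and 9.09 in CBFA2T3 shRNA cells, a change of -1.53 ± 0.45 log2 (adjusted p = 0.196, and 0.0410 with the block). Neither gene overlapped between the groups. Under the block both calls were lost without replicate 2 of both constructs or without either CBFA2T3 shRNA array. ADM was thus at 8.06 to 10.07 on the 4 arrays with IKKβ(EE), against 6.98 to 7.28 on the 4 without it. PFKFB4 was at 6.93 to 7.05, against 7.42 to 9.09. These 2 members were picked because the block called them, and the share of all probe sets split in this way is not given here.

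With both constructs against IKKβ(EE) alone, where the cells differ by the CBFA2T3 shRNA, limma called 0 of 36 members (0.143% of all probe sets), and 0 with the block (4.56%). At an unadjusted p under 0.05 there were 2, against 14.8% of all probe sets. They were HK1 (0.42 log2) and PFKP (0.44 log2), with adjusted p of 0.262 and 0.230. HK1 read 10.22 and 10.06 with both constructs, against 9.85 and 9.58 with IKKβ(EE). PFKP read 10.84 and 10.81 with both constructs, against 10.52 and 10.25 with IKKβ(EE). The arrays of either gene did not overlap between these groups. In the interaction, the effect of both constructs minus the sum of the single effects, limma called 0 members with or without the block (0.0123% of all probe sets either way), and the member median was -0.01 log2. At an unadjusted p under 0.05 there was 1 member with the block and 0 without it, against 5.55% and 2.17% of all probe sets.

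TXNIP, ALDOC, ARRDC4 and VEGFA, among the members whose arrays separated fully by replicate number, were not called in any comparison of constructs, with or without the block. P4HA1 and BNIP3L also separated fully, and limma with the block called both lower with both constructs against control (adjusted p = 0.0204 and 0.0178). TXNIP averaged 10.75 ± 1.12 with both constructs, 11.08 ± 0.97 in CBFA2T3 shRNA cells, 10.52 ± 0.80 in IKKβ(EE) cells and 10.61 ± 0.83 in control cells (SD, n = 2 each). Its change with both constructs was 0.14 log2, with a 95% interval of -1.47 to 1.75 without the block and of -0.17 to 0.45 with it. The first interval holds changes of the size seen between replicates, and the second does not. The changes of ALDOC, ARRDC4 and VEGFA with both constructs were 0.07, 0.48 and 0.40 log2 (adjusted p = 0.958, 0.703 and 0.709). NDRG1 averaged 6.44 ± 0.69 with both constructs and 5.60 ± 0.15 in control cells, a change of 0.84 log2 (adjusted p = 0.211).

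The size of the replicate difference was set beside IKKβ(EE) in a test added after the values were seen. None of the 24481 probe sets was called for a replicate difference that depended on IKKβ(EE) (limma, replicate number crossed with IKKβ(EE)), and 8 of 36 members had an unadjusted p under 0.05, against 5.39% of all probe sets. PFKFB4 differed by 0.05 log2 between replicates in the groups with IKKβ(EE), against 1.20 in those without it, a difference of -1.16 ± 0.15 (adjusted p = 0.430). PFKFB4 lay between 6.93 and 7.05 on every array with IKKβ(EE). ADM differed by 1.26 log2 with IKKβ(EE), against 0.18 without it (adjusted p = 0.576). ARRDC4 and VEGFA differed by 1.69 and 1.47 log2 with IKKβ(EE), against 0.72 and 0.53 without it (adjusted p = 0.709 for both). BNIP3 differed by 0.32 log2 with IKKβ(EE), against 0.95 without it (adjusted p = 0.773). TXNIP differed by 1.36 and 1.27 log2.

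**Figure D4:**
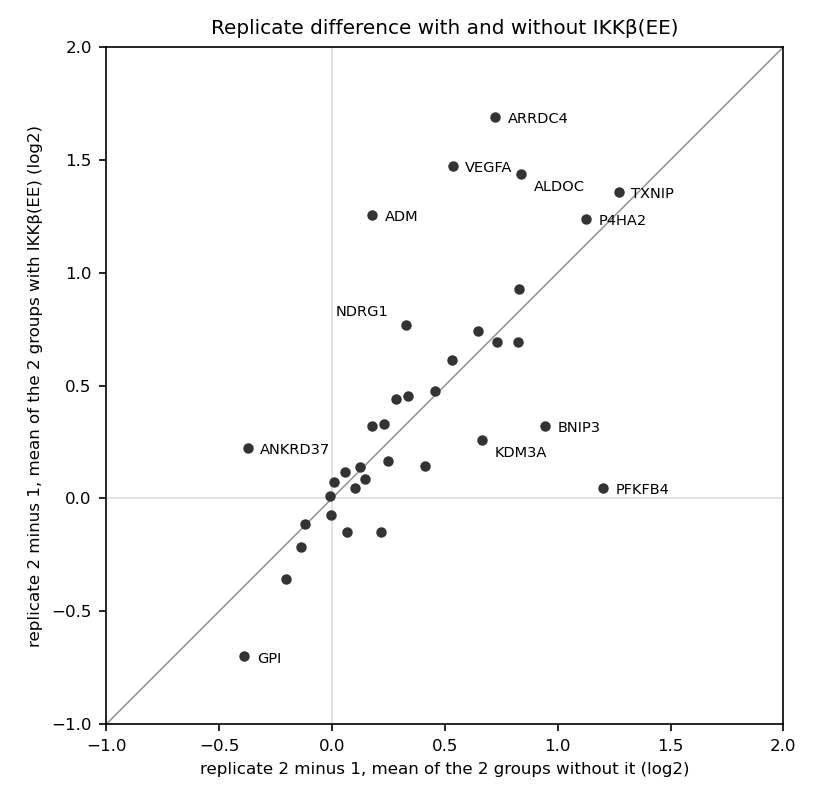
Replicate 2 minus replicate 1 in log2 intensity for the 36 members tested, as the mean of the 2 groups with IKKβ(EE) (vertical axis) and of the 2 groups without it (horizontal axis); the grey diagonal marks equal differences. ADM, ARRDC4 and VEGFA lie above the diagonal, PFKFB4 and BNIP3 below it, and TXNIP close to it.

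Other genes of the same pathways, which are no members, were read from 7 lists. Their calls between replicates are read against the 8.90% of all probe sets called there. Apart from the other HIF targets, no list stood clearly above that share. Of other HIF targets 7 of 27 tested were called between replicates, all higher in replicate 2, with a list median of 0.11 log2. BHLHE40, a transcriptional repressor, differed by 1.08 log2 (adjusted p = 0.0139), and GBE1, the glycogen branching enzyme, by 0.69 (adjusted p = 0.0134). PGM1, phosphoglucomutase, differed by 0.50 log2 and was the 1 of 7 called among other glycolysis enzymes. In pyruvate oxidation 1 of 11 was called, DLAT of pyruvate dehydrogenase (-0.35), and in the pentose phosphate pathway 1 of 9, RPIA, ribose phosphate isomerase (-0.35). Of the HIF subunits and regulators 1 of 14 was called, CITED2 (0.43), which competes with HIF for a coactivator and is also on the list of targets. Of the regulators and relatives of TXNIP and ARRDC4 2 of 18 were called, ARRDC3 (0.44), another alpha-arrestin, and MXD1 (0.57), a partner of MAX. None of the 6 hexose and lactate transporters tested was called, and 1 had an unadjusted p under 0.05, against 30.2% of all probe sets.

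Between constructs, the calls of the same lists are read against the 8.43% of all probe sets called with both constructs against control. There the transporter list had 2 of 6 called, both higher. SLC2A13, a myo-inositol transporter, read 5.58 and 5.59 with both constructs, 4.47 and 4.62 in CBFA2T3 shRNA cells, 4.45 and 4.26 in IKKβ(EE) cells, and 2.74 and 3.10 in control cells. It was called in all 5 pairwise comparisons, with 2.66 log2 for both constructs against control (adjusted p = 0.000466). SLC2A13 passed the floor only through the arrays with both constructs, where it was high. Its values in the other groups lay under the floor, so the calls of either single construct against control compare values near background. SLC2A6, a hexose transporter, changed by 1.26 log2 (adjusted p = 0.0213).

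HIF regulators had 2 of 14 called with both constructs, both higher. CITED2 read 9.09 and 9.57 with both constructs, against 7.75 and 8.20 in control cells, a change of 1.35 log2 (adjusted p = 0.0246). EPAS1, the HIF alpha subunit of endothelium, changed by 0.88 log2 from near background (adjusted p = 0.0480). It too passed the floor only through the arrays with both constructs. Of other HIF targets 1 rose, CITED2 again, and 2 of 27 fell. They were ERO1A, an oxidase of the endoplasmic reticulum (-0.87 log2, adjusted p = 0.0169), and PLOD1, a lysyl hydroxylase (-0.74 log2, adjusted p = 0.0252). ARRDC3 rose by 1.34 log2 (adjusted p = 0.0306), 1 of 18 on the list of TXNIP and ARRDC4 relatives. No gene of the lists of other glycolysis enzymes, pyruvate oxidation and the pentose phosphate pathway was called without the block. With the block, 9 of 27 other HIF targets were called with both constructs, 3 higher (BHLHE40, CITED2 and DDIT4) and 6 lower (ANGPTL4, ERO1A, KDM4B, PLOD1, PPFIA4 and RRAGD), against 23.7% of all probe sets. BHLHE40 read 8.37 and 9.88 with both constructs, against 6.33 and 7.35 in control cells, a change of 2.29 log2 (adjusted p = 0.0558, and 0.000596 with the block). PPFIA4, the largest of the 6, changed by -1.39 log2 near background (adjusted p = 0.126, and 0.0159 with the block). The block also called TIGAR (0.48) and PDHX (0.41) higher, 1 each of the 7 other glycolysis enzymes and the 11 genes of pyruvate oxidation, and ARRDC2 (-0.46) and FOXO3 (-0.48) lower among the 18 TXNIP and ARRDC4 relatives.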

How the data were processed

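Total RNA of 8 samples was measured on 8 arrays, 2 biological replicates of each of 4 transfections, grouped by the labels. The deposited values are log2 intensities per probe set, made by the authors with RMA per the submitters' processing notes. No source used here gives its version. The values reach 14.6, too high for natural logs of scanner readings (at most 11.1), which marks them as log2. Quantile scaling removes shifts shared by most genes. Without 62 control probe sets, 24481 of 54675 probe sets that reached log2 5 on at least 2 arrays were fitted with limma 3.58.1 in R 4.3.3. The fit had 4 group means (4 residual and 3.54 prior degrees of freedom). Tests were two-sided, with Benjamini-Hochberg adjustment over all probe sets and a call at an adjusted p under 0.05. Errors are standard errors unless SD is written, with a median of 0.154 log2, and the number of arrays limits the precision: 2 arrays against 2 cannot give an exact p under 0.333. The replicate comparison added replicate number to the group means (median standard error 0.0845).

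The labels number the replicates 1 and 2 and do not say what a number shares or whether cultures were separate, so p-values measure the spread between these arrays. Replicate differences correlated between groups at 0.34 to 0.58 over the probe sets, so equal numbers deviated together, and values with replicate number as a block are given where they change a call. Gene names came from GEO's platform annotation (41097 probe sets with 1 symbol, 1801 with several, 11777 with none; 41043 matched the RefSeq gene table). Of 82 member probe sets 66 were tested, and 24 members have several. Promoters came from the RefSeq table of build GRCh38.p14. Members, lists and tests were chosen with earlier results of these data known. Values on single arrays were given for most members called with or without the block, and differences alone for KDM3A, MXI1 and SLC2A3. Up to 2 called genes of a list were named at either end. Alternatives changed the floor, moderation, array weights, scaling, probe set, block, groups fitted and arrays. The fits were tested on simulated data. Python 3.11.15, pandas 2.3.3 and matplotlib 3.10.9 drew the figures.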

Additional observations from a re-analysis of the deposited data

How the results depend on the processing

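The number of arrays limits these results: a change of about 0.5 log2 in a member with a large replicate difference could not be told from none without the block. Of the comparisons between constructs, both against control was the least settled. Its 1 member called became 0 without a floor, with array weights, with cyclic loess scaling, with only the groups compared in the fit and on second probe sets, and 2 with a floor at log2 6, with trend and robust moderation and with 1 probe set per gene. It was 12 with the replicate block, where 23.7% of all probe sets were called, against 8.43% without it. The block also called 1 member for CBFA2T3 shRNA (7.72% of all probe sets), 3 for IKKβ(EE) (3.39%) and 2 for both against CBFA2T3 shRNA (5.08%). Each of these counts was 0 without the block. The block called 0 for both against IKKβ(EE) and for the interaction. Leaving out 1 array gave 0 to 2 members for both against control and 0 to 1 for IKKβ(EE) and for both against CBFA2T3 shRNA. With the block, an alternative added after the values were seen, the ranges were 0 to 13 for both against control, 0 to 3 for CBFA2T3 shRNA, 0 to 3 for IKKβ(EE) and 0 to 3 for both against CBFA2T3 shRNA. The replicate comparison, with 16 members called, gave 11 to 22 under other floors, moderation, weights, scalings and 1 probe set per gene. It gave 5 of 17 on second probe sets, where fewer members could be read, and 0 to 10 with 1 array left out. The changes of HK2 (0.0124 log2) and PDK1 (0.0492 log2) with both constructs reversed sign on their second probe sets. Scalings moved the median of all probe sets by less than 0.04 log2. Apart from the replicate block on all arrays, the share of all probe sets called under each alternative is not given in this section. The counts there do not tell a change in the members from a change over the whole array. Except where given, the cause of a change in a count was not tested.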
